A study of Mus musculus with 90 samples.

Results

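The homeobox factors of forebrain regional identity are 39 transcription factor genes that were listed by symbol and looked up by mouse Ensembl identifier in a table of 37991 identifiers. Of the 39, 37 had an identifier. Expression of Lhx8 and Pou3f2 was not analysed here. Pou3f1 was listed at 0 reads in every library, so 36 genes had reads. The counts do not tell whether Pou3f1 was silent or its reads could not be counted. Of the 36, 35 passed a filter on low counts over all 90 libraries and were tested, and Six3 did not pass it.

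The libraries were made from amygdala (30), frontal cortex (32) and hypothalamus (28) of 32 resident C57BL/6J male mice that had been housed with a female so that they held a territory. A resident met a caged BALB/cJ male for 5 min (intruder), or the same cage with a paper cup in it (control), and was killed 30, 60 or 120 min later. That gives 18 groups, with 5 libraries in each except hypothalamus 30 min controls (3) and both frontal cortex groups at 120 min (6 and 6). All mice were wild type, and their ages are not given in the sources used here. Replicates are animals per the labels, and 28 of the 32 animals gave a library of each region. The design text also speaks of RNA samples pooled to make libraries, without saying which.

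Homeobox genes encode proteins that bind DNA through a homeodomain. In the embryo their overlapping territories divide the forebrain into pallium (cortex and part of the amygdala), subpallium (striatum, septum and the rest of the amygdala), hypothalamus and thalamus, and many stay active in the adult neurons that come from each territory. Emx1, Emx2, Lhx2 and Otx1 mark the pallium, the Dlx genes and Lhx6 mark GABAergic neurons of subpallial origin, and Nkx2-1, Nkx2-4, Otp, Rax, Six6, Hmx2 and Hmx3 are known for the hypothalamus. Their levels can therefore also vary with the tissue that went into a dissected sample, which was not tested here.

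Promoter windows are printed for 4 members with strong regional or library contrasts below: Emx1 (frontal cortex), Hmx3 and Nkx2-4 (hypothalamus) and Otx2 (a few libraries of each region). Each window is the 250 bases before the gene's start on its own strand, from RefSeq on build GRCm38.p6, at chr6:85187681-85187930 (plus strand) for Emx1, chr7:131542713-131542962 (plus strand) for Hmx3, chr2:147085346-147085595 (minus strand) for Nkx2-4 and chr14:48665110-48665359 (minus strand) for Otx2. Capitals mark every CG in the first 3 windows and the homeodomain core motif TAATTA in the window of Otx2.
Emx1: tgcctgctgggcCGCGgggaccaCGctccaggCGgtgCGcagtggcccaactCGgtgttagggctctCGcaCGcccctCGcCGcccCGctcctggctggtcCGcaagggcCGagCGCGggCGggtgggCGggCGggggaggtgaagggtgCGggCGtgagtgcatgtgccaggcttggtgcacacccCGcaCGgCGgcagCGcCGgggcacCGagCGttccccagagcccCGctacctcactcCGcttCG
Hmx3: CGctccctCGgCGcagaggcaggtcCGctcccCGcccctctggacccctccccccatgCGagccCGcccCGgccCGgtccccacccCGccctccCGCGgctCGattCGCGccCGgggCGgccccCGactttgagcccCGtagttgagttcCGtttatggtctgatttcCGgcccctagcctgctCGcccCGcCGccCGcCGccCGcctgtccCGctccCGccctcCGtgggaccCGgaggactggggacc
Nkx2-4: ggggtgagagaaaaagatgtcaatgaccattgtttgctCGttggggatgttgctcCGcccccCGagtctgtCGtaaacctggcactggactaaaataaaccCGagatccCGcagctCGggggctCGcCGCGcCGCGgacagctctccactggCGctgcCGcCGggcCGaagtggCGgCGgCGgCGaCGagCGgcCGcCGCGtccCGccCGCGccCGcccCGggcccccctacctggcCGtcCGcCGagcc
Otx2: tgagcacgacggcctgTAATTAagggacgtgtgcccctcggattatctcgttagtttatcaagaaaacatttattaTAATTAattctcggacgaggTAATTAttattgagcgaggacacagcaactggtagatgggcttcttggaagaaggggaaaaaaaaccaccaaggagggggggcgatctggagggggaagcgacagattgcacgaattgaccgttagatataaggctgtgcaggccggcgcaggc
The windows of Emx1, Hmx3 and Nkx2-4 held 30, 31 and 33 CG dinucleotides. RefSeq windows were found for 29 of the 39 members (40 windows, since some genes have several starts, with Lhx8 and Pou3f2 included), with a median of 14 CG (quartiles 8 and 24) against 6 (2 and 16) over 32851 mouse windows of the same length. TAATTA, which reads the same on both strands, occurred in 2 of the 40 windows (5.0%) and in 4.84% of all windows. Both of those windows belong to Otx2, and the printed one holds 3 copies. CAAGTG or its complement CACTTG, the core bound by NK2 factors, occurred in 2 of the 40 windows (5.0%, Nkx2-2 and Satb1) and in 11.6% of all. No printed window holds both motifs. A match is a description of the letters and was not tested as a binding site.

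Libraries held 38.6 to 58.86 M reads assigned to genes (median 49.0 M), and a level is given in CPM, the reads of a gene per 1 M gene reads, on library sizes scaled by the trimmed mean of M-values. The regional labels were checked with 3 lists of marker genes, scored as the mean log2(CPM + 1). Cortex markers scored 6.471 to 7.06 in frontal cortex, while amygdala gave 4.194 to 5.489 and hypothalamus 2.279 to 3.651, without overlap. Hypothalamus markers scored 4.832 to 6.259 in hypothalamus and at most 1.954 elsewhere. Amygdala markers scored 3.096 to 3.861 in amygdala and 3.129 to 3.582 in frontal cortex, so this list did not tell those 2 apart. By a score over the members of each territory, the libraries that stood apart from their own group were frontal cortex 120 min intruder 1, hypothalamus 120 min control 2 and hypothalamus 60 min control 6. Without these 3 libraries, every count of members called in the region contrasts stayed within 1.5 times. Most genes tested were called in those contrasts, so the counts had little room to change.

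Hypothalamus differed from frontal cortex in 33 of the 35 tested members, 24 of them higher and 9 lower (edgeR's quasi-likelihood test, Benjamini-Hochberg adjusted p below 0.05 over 18337 genes). Of all genes 87.4% were called, 45.1% higher and 42.2% lower, so the count of members was near the background. Hmx2, Hmx3, Irx5, Lhx1, Nkx2-4, Otp, Rax and Six6 did not pass the low-count filter within frontal cortex. They entered the test through the regions where they were high, so their direction against frontal cortex was fixed and they support no count. Of the other 27 members, 16 were higher and 9 lower in hypothalamus. Their median absolute log2 difference was 1.76, and that of all genes tested was 0.42. Libraries of the 2 regions did not overlap at all in 15 of these 27, 8 higher in hypothalamus (14.1% of all genes were so) and 7 higher in frontal cortex (13.2% of all genes). Irx3 passed within frontal cortex only with its 120 min intruder 1 library. Emx1 passed within hypothalamus only with its 120 min control 2 library. Both are in the counts of the 27 given here and support no count. In tissue samples, fewer cells of a type and less RNA per cell cannot be told apart, and this holds for all differences below.

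Frontal cortex and amygdala differed in 32 members, 24 higher in amygdala and 8 lower, beside 76.7% of all genes called (41.3% higher and 35.4% lower). Hypothalamus and amygdala differed in 33, 20 higher in hypothalamus and 13 lower, beside 80.1% of all genes (39.6% higher and 40.6% lower). Of the 27 that passed within frontal cortex, 19 were higher and 8 lower in amygdala, with a median absolute log2 difference of 0.86 where that of all genes was 0.22. Of the 31 that passed within amygdala (all but Hmx2, Hmx3, Nkx2-4 and Six6), 16 were higher and 13 lower in hypothalamus, with a median absolute difference of 1.63 where that of all genes was 0.27. Every library of hypothalamus lay above every other library in 14 members (Lhx1, Lhx5, Nkx2-1, Nkx2-2, Nkx2-4, Six6, Otp, Hmx2, Hmx3, Irx3, Irx5, Zfhx3, Zfhx4 and Onecut2), of which 7 (Lhx1, Nkx2-4, Six6, Otp, Hmx2, Hmx3 and Irx5) did not pass within frontal cortex and support no count. The other 7 were among the 27 that passed in every region, and 6.52% of all genes tested lay so. Every library of frontal cortex lay above every other library in 5 members (Emx1, Emx2, Otx1, Pou3f3 and Satb1), which held for 3.04% of all genes. The same was true of amygdala for 0 members and 0.147% of all genes. Irx3 is among these 7 and the 19 above, and Emx1 is among these 5 and the 13 above. Both passed in 1 region only with 1 library, as given above, and support no count there. Set against frontal cortex alone, amygdala lay wholly below it in those 5 members (3.48% of all genes) and wholly above it in Meis1 (2.85%). Set against hypothalamus alone, amygdala lay wholly below it in 10 of the 31 members that passed within amygdala (7.48% of all genes) and wholly above it in Lhx2, Emx2, Meis2 and Pbx2 (7.32%).

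**Figure D1:**
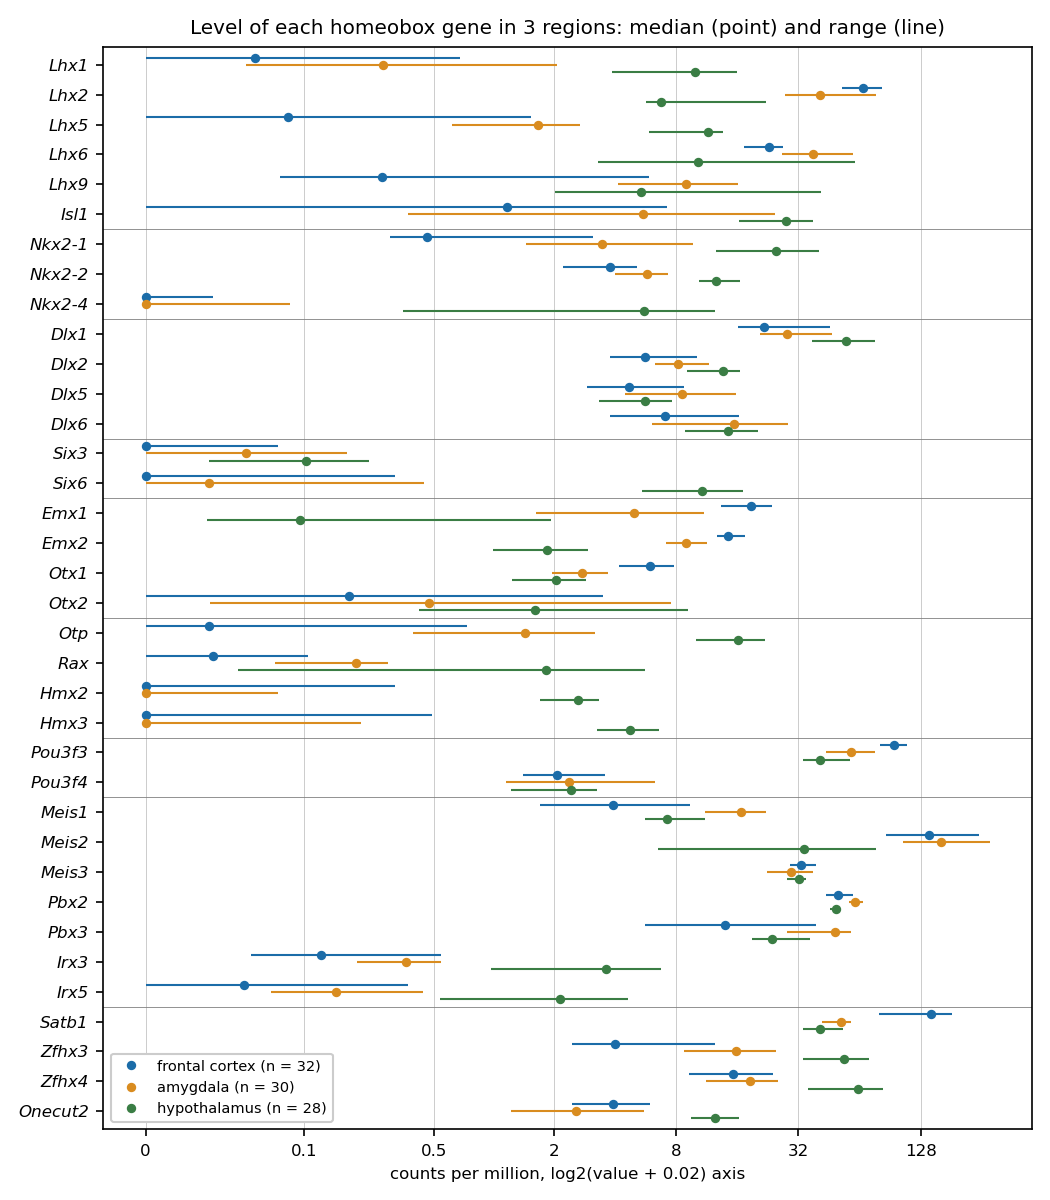
Level of 36 homeobox genes by region in CPM on a log2(value + 0.02) axis, with the median (point) and the range (line) over 32 frontal cortex, 30 amygdala and 28 hypothalamus libraries, in families separated by grey lines. Among the 27 genes that passed the low-count filter in every region, the hypothalamus line lies apart to the right for 7 such as Lhx5, Nkx2-1 and Zfhx3, and the frontal cortex line for 5 such as Emx1 and Satb1.

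The pallial genes were highest in frontal cortex. Emx1, which is active in progenitors of cortical excitatory neurons and stays on in those neurons, ranged from 13.3 to 23.7 CPM in frontal cortex (median 18.7), from 1.63 to 11.0 in amygdala (4.97) and from 0.02 to 1.93 in hypothalamus (0.0941). Its log2 difference was -7.07 ± 0.23 (SE, adjusted p = 1.6e-43, edgeR) between hypothalamus and frontal cortex and -1.81 ± 0.136 (adjusted p = 1e-20) between amygdala and frontal cortex. Of the 247 hypothalamus reads of Emx1, 101 came from 120 min control 2, and the former difference was -7.38 without replicate 2 and -7.63 without the 3 libraries that stand apart. As a group, all 4 pallial members (Emx1, Emx2, Lhx2 and Otx1) were lower in hypothalamus and in amygdala than in frontal cortex, with median log2 differences of -3.05 and -0.88, beside 42.2% and 35.4% of all genes lower in these comparisons. Against hypothalamus, Emx1 supports no count, for the reason given above. Emx2, the paralog that patterns caudal and medial cortex, had medians of 14.4, 9.01 and 1.85 CPM in frontal cortex, amygdala and hypothalamus, and no range touched another. Lhx2, a LIM factor that specifies cortex, had medians of 66.3, 40.7 and 6.76 CPM, and its amygdala libraries (27.5 to 77.3) overlapped frontal cortex (52.5 to 82.4). Otx1, known for deep-layer cortical neurons, had medians of 5.95, 2.75 and 2.04 CPM, and its amygdala and hypothalamus ranges overlapped, with a log2 difference of -0.44 ± 0.0604 for hypothalamus minus amygdala.

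Otx2 went the other way from its paralog. Otx2 is known in the adult for choroid plexus and for thalamic and midbrain neurons, and its median was 1.62 CPM in hypothalamus, 0.47 in amygdala and 0.18 in frontal cortex. Hypothalamus was higher than frontal cortex by a log2 of 2.50 ± 0.32 and than amygdala by 1.63 ± 0.303 (edgeR), the latter 0.71 and not called in the 60 min libraries alone. The difference between amygdala and frontal cortex, 0.86 ± 0.349 (adjusted p = 0.0215, edgeR), was 0.16 and not called in the 120 min libraries alone and 1.22 and not called at 60 min alone. Leaving out all libraries of replicate number 2, 3 or 4 also ended the call, with values of 0.8, 0.7 and 0.79, and without number 5 it was 0.36. All 3 ranges overlapped, and the highest library of each stood at 9.19, 7.59 and 3.51 CPM.

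Among the 5 LIM homeodomain genes that passed within frontal cortex, Lhx5, Lhx9 and Isl1 were higher and Lhx2 and Lhx6 lower in hypothalamus than in frontal cortex (45.1% and 42.2% of all genes). Lhx1 and Lhx5, a pair of close paralogs, were far higher in hypothalamus than elsewhere. Lhx1 had medians of 9.97 CPM in hypothalamus, 0.272 in amygdala and 0.0488 in frontal cortex, and a log2 difference of 4.89 ± 0.202 between hypothalamus and amygdala. Lhx5 had medians of 11.5, 1.66 and 0.0802 CPM, with log2 differences of 6.45 ± 0.19 for hypothalamus against frontal cortex, 2.88 ± 0.141 for hypothalamus against amygdala and 3.57 ± 0.208 for amygdala against frontal cortex. Isl1, a factor of striatal projection neurons and of arcuate neurons of the hypothalamus, had medians of 27.8 CPM in hypothalamus, 5.51 in amygdala and 1.17 in frontal cortex. The amygdala libraries spread from 0.369 to 24.5, which reaches into the hypothalamus range of 16.3 to 38.0.

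Lhx6 and Lhx9 were LIM genes with their highest median in amygdala. Lhx6, which directs GABAergic neurons from the medial ganglionic eminence, had medians of 10.3 CPM in hypothalamus, 37.6 in amygdala and 23.0 in frontal cortex. It was higher in amygdala than in frontal cortex by 0.79 ± 0.157 (adjusted p = 6.05e-06, edgeR), but was not called in the 60 min libraries alone (0.62). The Lhx6 difference between hypothalamus and frontal cortex, -0.52 ± 0.165 (adjusted p = 0.00292, edgeR), changed sign to 0.1 in the 30 min libraries alone. It was not called without replicate 2 (-0.32), in the 60 min libraries alone (-0.44) or in controls alone (-0.31). The hypothalamus libraries of Lhx6 ran from 3.31 to 61.0 CPM, past both other regions at each end. Lhx9, a factor of thalamic, hypothalamic and amygdalar excitatory neurons, had medians of 8.96 CPM in amygdala, 5.38 in hypothalamus and 0.268 in frontal cortex. Its log2 difference was 4.57 ± 0.254 between amygdala and frontal cortex and 4.09 ± 0.257 between hypothalamus and frontal cortex. The Lhx9 difference between hypothalamus and amygdala, -0.48 ± 0.199 (adjusted p = 0.0237, edgeR), was 0.0054 in the 120 min libraries alone. The call was lost with DESeq2 (-0.47) and without replicate 2, 3 or 4 (-0.27, -0.44 and -0.42).

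Nkx2-1 and Nkx2-2, the NK2 genes that passed the filter in every region, were higher in hypothalamus than in both others (45.1% and 39.6% of all genes were). Nkx2-1, the gene that sets ventral hypothalamic and medial ganglionic identity, ranged from 12.6 to 40.3 CPM in hypothalamus (median 25.0), from 1.45 to 9.68 in amygdala (3.47) and from 0.297 to 3.14 in frontal cortex (0.459). Its log2 differences were 5.23 ± 0.171 against frontal cortex and 2.75 ± 0.145 against amygdala (edgeR). Nkx2-2, a factor of ventral neural tube that also marks the oligodendrocyte lineage, differed least of the 3, with medians of 12.6, 5.74 and 3.79 CPM. Nkx2-4, a close paralog of Nkx2-1, had few reads outside hypothalamus. Its reads over all libraries of a region were 7980 in hypothalamus, 17 in amygdala and 4 in frontal cortex. No fold is given where the other region rests on so few reads.

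The other genes known for hypothalamus also had most of their reads there. Reads summed over a region came to 15071 for Six6 in hypothalamus, 54 in amygdala and 26 in frontal cortex. Hmx3 had 7156, 15 and 32 reads, and Hmx2 had 3803, 13 and 22. Six6 is a factor of the ventral hypothalamus and eye, and Hmx2 and Hmx3 are neighbouring genes needed for neurons of the arcuate nucleus that make growth hormone-releasing hormone. Hmx2, Hmx3 and Nkx2-4 were the 3 members not called between amygdala and frontal cortex. The call of Six6 there (adjusted p = 0.0388, edgeR) rested on 54 against 26 reads and was lost in 7 alternatives. Of the 54, 22 came from amygdala 120 min intruder 4, and of the 26, 18 came from frontal cortex 120 min intruder 1. Otp, required for oxytocin, vasopressin and other neuroendocrine neurons, had 23449, 2224 and 65 reads and medians of 16.1, 1.44 and 0.0208 CPM. Of its 65 frontal cortex reads 42 came from 120 min intruder 1, so no fold against that region is given. Between hypothalamus and amygdala the log2 difference of Otp was 3.38 ± 0.133 (adjusted p = 2.14e-37, edgeR). Rax, a gene of the early hypothalamus that stays on in tanycytes, the glia lining the third ventricle, had medians of 1.83, 0.196 and 0.023 CPM. Raxos1 overlaps Rax by 1604 bases on the opposite strand, and whether counting used strand is not given in the sources used here.

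**Figure D2:**
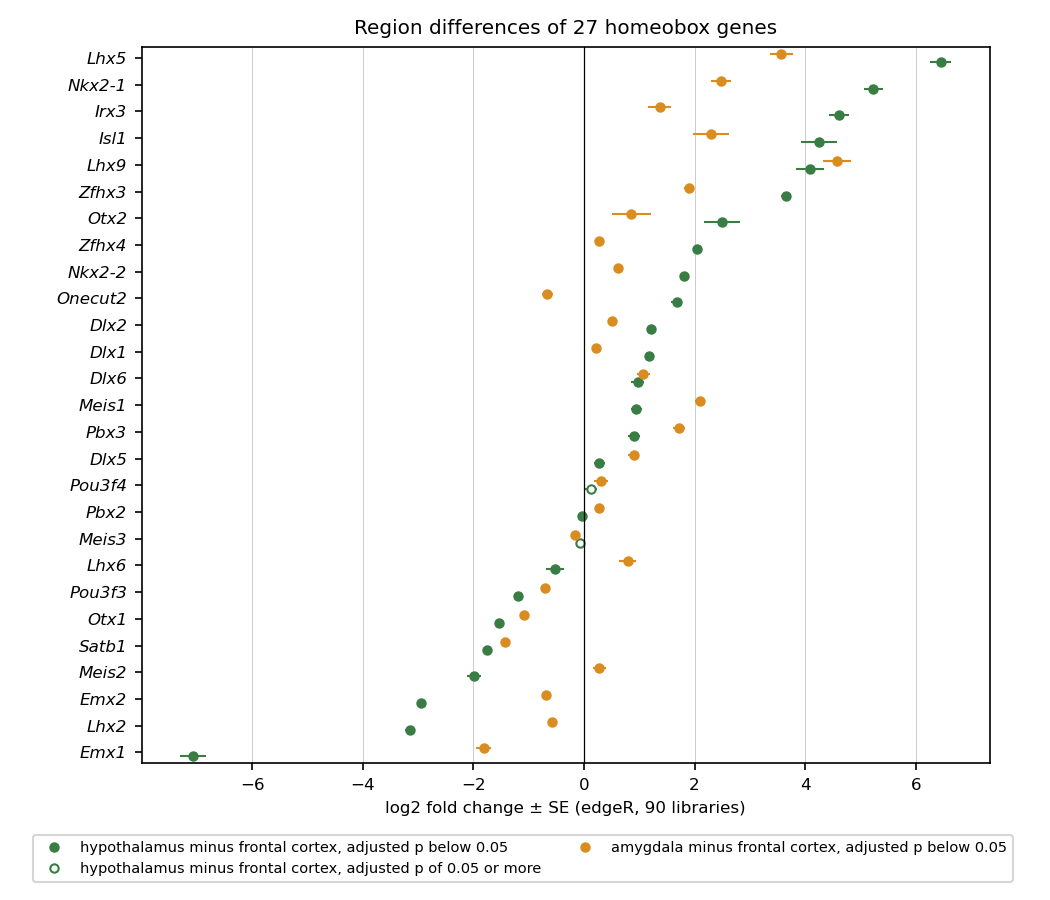
Log2 fold change ± SE of 27 homeobox genes for hypothalamus minus frontal cortex (green) and amygdala minus frontal cortex (orange), with open points for an adjusted p of 0.05 or more; the 8 genes that did not pass the low-count filter within frontal cortex are left out. Genes run from Lhx5 (6.45 and 3.57) to Emx1 (-7.07 and -1.81), and the 2 comparisons share their frontal cortex libraries.

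Irx3 and Irx5, a linked pair of Iroquois factors, were higher in hypothalamus than in amygdala by 3.25 ± 0.156 and 3.55 ± 0.19. Their medians were 3.62 and 2.14 CPM in hypothalamus, 0.36 and 0.152 in amygdala and 0.125 and 0.041 in frontal cortex. Six3, a gene of anterior forebrain and striatum, reached no more than 0.229 CPM in any library, with medians of 0.102 in hypothalamus, 0.0419 in amygdala and 0 in frontal cortex. Six3os1, which overlaps it by 106 bases on the opposite strand, had medians of 7.64, 4.63 and 0.297 CPM in the same order.

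The 4 Distal-less genes, which drive GABAergic neuron fate in the subpallium, lie in the genome as linked pairs. Dlx1 and Dlx2 were highest in hypothalamus, with medians of 54.6, 28.2 and 21.8 CPM for Dlx1 and 13.7, 8.2 and 5.62 for Dlx2 in hypothalamus, amygdala and frontal cortex. Dlx5 and Dlx6 had their highest medians in amygdala, 8.55 and 15.4 CPM, with 5.62 and 14.4 in hypothalamus and 4.72 and 7.06 in frontal cortex. Between hypothalamus and amygdala, Dlx1 and Dlx2 were higher in hypothalamus by 0.95 ± 0.0756 and 0.71 ± 0.0593. Dlx5 was at -0.62 ± 0.104 and was called, and Dlx6 was at -0.10 ± 0.119 (adjusted p = 0.444, edgeR). The difference of Dlx5 between hypothalamus and frontal cortex, 0.28 ± 0.103 (adjusted p = 0.0105, edgeR), was 0.23 and not called without replicate 4 and was -0.00018 in the 60 min libraries alone. That of Dlx1 between amygdala and frontal cortex, 0.22 ± 0.0734 (adjusted p = 0.00455, edgeR), was 0.17 and not called without replicate 4 and was -0.22 in the 60 min libraries alone. Dlx1as, an opposite-strand neighbour that overlaps Dlx1 by 335 bases, had medians of 1.96, 7.0 and 6.05 CPM in the same order of regions.

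The TALE genes, whose products pair with other homeodomain proteins as cofactors, include 4 genes with their highest median in amygdala. Meis1 had medians of 16.7 CPM in amygdala, 7.24 in hypothalamus and 3.9 in frontal cortex, and its amygdala and frontal cortex ranges did not touch. Pbx3 had medians of 48.3, 23.8 and 13.9 CPM, and amygdala exceeded frontal cortex by 1.72 ± 0.108. Meis2, a marker of striatal and olfactory neurons, had medians of 34.1 CPM in hypothalamus, 161 in amygdala and 140.0 in frontal cortex. Hypothalamus was lower than frontal cortex by -1.99 ± 0.133 and no library overlapped. The Meis2 difference between amygdala and frontal cortex, 0.28 ± 0.121 (adjusted p = 0.0288, edgeR), was 0.23 with the animal as a block and no longer called (adjusted p = 0.0677, edgeR), and it was -0.015 in the 60 min libraries alone.

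Pbx2 and Meis3 differed little between regions. Pbx2, a broadly expressed partner of Hox and Meis proteins, had medians of 48.9 CPM in hypothalamus, 60.9 in amygdala and 50.4 in frontal cortex. Amygdala was higher than frontal cortex by 0.28 ± 0.0151 (adjusted p = 1.03e-28, edgeR), a small difference with little spread. Between hypothalamus and frontal cortex Pbx2 was at -0.04 ± 0.0155 (adjusted p = 0.0193, edgeR), and that sign turned to 0.024 under upper-quartile scaling and to 0.043 in the 30 min libraries alone. Meis3, a relative of Meis1, had medians of 32.1, 29.5 and 32.9 CPM in the same order, was lower in amygdala than in frontal cortex by -0.16 ± 0.037 and did not pass between hypothalamus and frontal cortex (adjusted p = 0.0754, edgeR); the former was 0.016 in the 30 min libraries alone.

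Of the POU genes, Pou3f3 was highest in frontal cortex, where it acts in upper-layer neurons, with medians of 94.8, 58.2 and 41.1 CPM in frontal cortex, amygdala and hypothalamus. Pou3f4 had medians of 2.07, 2.39 and 2.44 CPM and was called between amygdala and frontal cortex alone (0.31 ± 0.122, adjusted p = 0.018, edgeR). This call was lost in 7 alternatives: the difference was 0.083 without replicate 6, 0.13 at 60 min alone, and 0.27 with the animal as a block (adjusted p = 0.0512, edgeR). Satb1, a chromatin organiser with a homeodomain that is used by cortical interneurons and layer neurons, had medians of 144 CPM in frontal cortex, 51.8 in amygdala and 40.7 in hypothalamus. Its frontal cortex libraries (79.7 to 182) did not overlap either other region.

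Zfhx3, Zfhx4 and Onecut2 were hypothalamic in level. Zfhx3, a factor with an established role in the circadian clock of the suprachiasmatic nucleus, had medians of 53.5, 15.9 and 4.01 CPM in hypothalamus, amygdala and frontal cortex, and log2 differences of 3.65 ± 0.0943 and 1.74 ± 0.087 for hypothalamus against the others. Zfhx4, a large relative of Zfhx3, had medians of 63.2, 18.5 and 15.3 CPM. Its difference between amygdala and frontal cortex, 0.27 ± 0.0692, was -0.055 in the 30 min libraries alone. Onecut2 had medians of 12.4, 2.56 and 3.91 CPM, and was the member of this family besides Satb1 that was lower in amygdala than in frontal cortex (-0.66 ± 0.102, edgeR; -0.39 and not called in the 60 min libraries alone).

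Levels between genes can be compared only per length, as median CPM per kilobase of exon. On that scale the highest members of amygdala were Pbx2 (16.7) and Meis2 (13.3), and those of frontal cortex Lhx2 (15.1), Pbx2 (13.8) and Pou3f3 (12.8). The highest of hypothalamus were Pbx2 (13.4), Dlx1 (10.1), Meis3 (10.1), Nkx2-1 (8.79), Isl1 (7.01), Dlx6 (6.04) and Otp (5.57). Emx1 stood at 8.57 in frontal cortex. Per length, the genes with few reads outside hypothalamus stood lower there than the cofactors Pbx2 and Meis3, with 3.25 for Nkx2-4, 3.28 for Hmx3 and 2.67 for Six6.

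Other forebrain homeobox genes from a list of 42, 36 of them tested in the same fit, gave the following counts. Between hypothalamus and frontal cortex 34 were called, 21 higher and 13 lower, between amygdala and frontal cortex 27 (17 and 10), and between hypothalamus and amygdala 29 (18 and 11). Beside these stand 87.4%, 76.7% and 80.1% of all genes called, so these counts lie near the background. Onecut3, a paralog of Onecut2, had medians of 7.67, 0.02 and 0 CPM in hypothalamus, amygdala and frontal cortex. Barhl2 was higher in amygdala than in frontal cortex by 4.46 ± 0.159. Of 8 cofactors of LIM factors, 6 were lower and 0 higher in hypothalamus than in frontal cortex, where 42.2% of all genes were lower and 45.1% higher. Lmo4, which competes for LIM cofactors, was lower in hypothalamus by -2.66 ± 0.039, and Lmo3 was highest in amygdala, with a median of 288 CPM against 138 and 63.7 in frontal cortex and hypothalamus. Between amygdala and frontal cortex these cofactors went both ways. Lmo3 (1.04) and Lmo2 (0.35) were higher in amygdala, and Lmo4 (-1.27) and Ldb2 (-0.23) were lower. Of 25 Hox genes, which pattern hindbrain and spinal cord, 1 passed the low-count filter.

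Spread between libraries of a region was measured as the biological coefficient of variation (BCV) of each gene after groups were fitted. Of the members tested in each region, amygdala had 13 of 31, frontal cortex 12 of 27 and hypothalamus 14 of 35 above the 90th percentile of all genes, a point that 1 gene in 10 passes by definition. The median BCV of the members was between 18.2% and 20.9%, where that of all genes was 8.52% (frontal cortex) to 10.1% (amygdala). Neither comparison matches genes by mean level, with which BCV changes, so neither sets the members against genes of like level. The widest were Isl1 in frontal cortex (112%), Lhx5 in frontal cortex (100%), Rax in hypothalamus (94.5%), Otx2 in frontal cortex (92.5%) and Isl1 in amygdala (87.6%). Genes of the same mean level had a trended BCV of 18.6% for Isl1 in frontal cortex and 20.3% for Rax in hypothalamus. The steadiest was Pbx2, with 3.68% in hypothalamus, 4.57% in amygdala and 5.26% in frontal cortex.

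In hypothalamus, Rax separated the libraries most. Its level was at most 0.671 CPM in 7 libraries (2 to 31 reads) and at least 1.16 in the other 21. The 7 were 30 min control 3 and 5, 30 min intruder 4, 60 min control 6, 120 min control 6 and 120 min intruder 3 and 6, so they came from both conditions and all 3 times. These were also the 7 lowest libraries for Nkx2-4 (at most 3.46 CPM, next 4.42) and for Isl1 (at most 23.0, next 24.1), and the 7 highest for Otx2 (at least 2.46, next 2.25). The 7 lowest libraries for Nkx2-1 shared 6 with them, as did the 7 highest for Meis2 and for Lhx9, while Irx3 shared 5 at its low end and Lhx6 shared 4 at its high end. At the other end, 30 min control 2 had the highest Rax (5.62 CPM), Nkx2-4 (12.5) and Irx3 (6.77) and the lowest Meis2 (6.53) and Lhx9 (2.03).

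**Figure D3:**
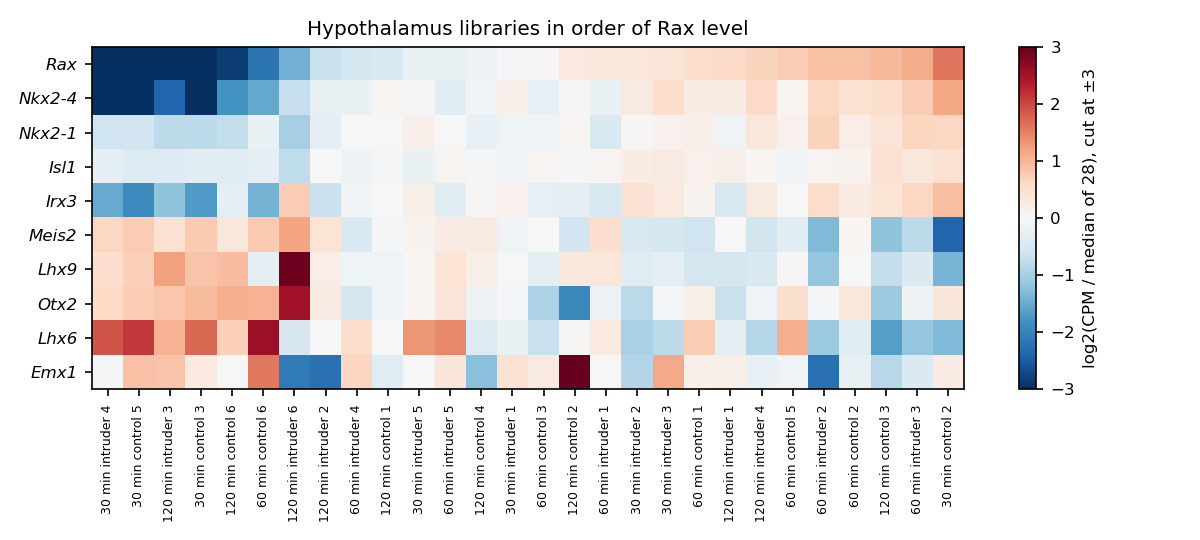
Level of 10 homeobox genes in the 28 hypothalamus libraries as log2 of CPM over the gene's median, limited to ±3, with libraries ordered by Rax. The 7 libraries at the left are low for Rax, Nkx2-4 and Isl1 and high for Otx2, and the 3 highest for Lhx6, Lhx9 and Emx1 are 60 min control 6, 120 min intruder 6 and 120 min control 2.

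Summed markers of tanycytes and ependymal cells were at most 98.5 CPM in the same 7 libraries and at least 102 in the others. Summed pituitary markers shared 6 of their 7 lowest libraries with Rax, at most 30.6 CPM where the next was 33.2. That list includes Pomc, which is also on the list of hypothalamus markers, so the sum does not stand for pituitary alone. All 3 hypothalamus libraries with replicate number 6 are among the 7, and the 3 amygdala libraries with that number are among the 5 highest of their region for Isl1. The likeness was seen in the data, and what set it was not tested.

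Single hypothalamus libraries held members at the limits of the range. Hypothalamus 120 min control 2 had Emx1 at 1.93 CPM where the other 27 were at most 0.28, and Lhx2 at 22.3 where they were at most 11.6. It was the lowest for 7 members, among them Lhx1 (3.89 CPM), Lhx5 (5.9), Zfhx3 (33.9) and Zfhx4 (35.8). Its summed cortex markers were 248 CPM, next 122. Hypothalamus 120 min intruder 6 had Lhx9 at 41.2 CPM (next 12.7), Otx2 at 9.19 (next 3.46) and Meis2 at 77.2, and it was the lowest for all 4 Dlx genes, Isl1 (16.3) and Nkx2-1 (12.6). Its summed thalamus markers were 605 CPM, a level passed by 120 min control 6 (693) and 120 min intruder 3 (611), while the region's median was 356. Hypothalamus 60 min control 6 had the highest Lhx6 (61.0 CPM, next 44.7), Dlx5, Dlx6, Meis1 and Satb1, and its summed choroid plexus markers were 239 CPM, next 75.8. The part of these other tissues in the members' values was not tested.

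Frontal cortex 120 min intruder 1 lay above all 31 other cortical libraries for 12 members. Otp was at 0.734 CPM (others at most 0.0616), Hmx3 at 0.489 (0.0237), Hmx2 at 0.314 (0.041) and Six6 at 0.314 (0.0275). Nkx2-1 was at 3.14 CPM (others at most 1.44), Lhx5 at 1.54 (0.464), Lhx1 at 0.681 (0.439) and Zfhx3 at 12.4 (6.32). The excess over the median of the other cortical libraries came to between 2.92% and 15.8% of the hypothalamus median for 10 of these genes (Zfhx3, Irx5, Lhx5, Hmx2, Irx3, Nkx2-1, Hmx3, Lhx1, Otp and Six6, from high to low), but to 105% for Lhx9 (5.9 CPM) and 207% for Otx2 (3.51). Nkx2-4 and Rax, at 0.0175 and 0.0349 CPM, stayed within the range of the other cortical libraries. Summed hypothalamus markers were 39.4 CPM in this library (next 10.9), thalamus markers 209 (next 118) and choroid plexus markers 247, and their part in the members' values was not tested.

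**Figure D4:**
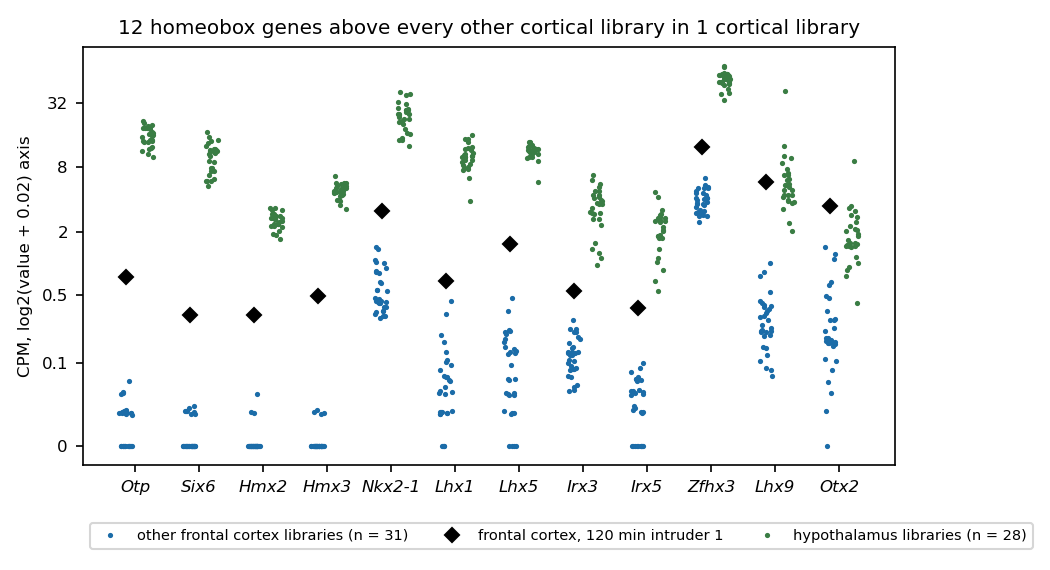
CPM on a log2(value + 0.02) axis of 12 homeobox genes in frontal cortex 120 min intruder 1 (black diamond), the 31 other frontal cortex libraries (blue) and the 28 hypothalamus libraries (green). The diamond lies above every blue point in each gene and reaches the hypothalamus range for Lhx9 (5.9) and Otx2 (3.51).

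Elsewhere in frontal cortex, Isl1 ranged from 0 CPM in 30 min intruder 3 to 7.25 in 30 min intruder 2. The 5 libraries with the highest Isl1 shared 4 with the 5 highest sums of striatum markers (at least 1170 CPM). Pbx3 was highest in 60 min intruder 3 (39.3 CPM), 60 min control 5 (27.8) and 60 min control 1 (22.3). The same 3 were the highest for Meis2 (247, 212 and 193 CPM, next 166) and Dlx1 (39.4, 45.9 and 36.6, next 35.9) and the lowest for Satb1 (79.7, 83.2 and 89.9, next 113). The 3 highest for Isl1 shared 1 with them, 60 min intruder 3. Summed olfactory bulb markers were 324 CPM in 60 min intruder 3 and 294 in 60 min control 5, the top 2 of the region. The 4 highest libraries for Otx2 (120 min intruder 1, 60 min control 6, 30 min control 1 and 60 min intruder 1) were the 4 with the highest choroid plexus sums, at least 244 CPM where the next was 163, in a list that includes Otx2.

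In amygdala, Isl1 ran from 0.369 CPM in 60 min intruder 2 to 24.5 in 60 min control 6. The former had Emx1 at 9.37 CPM with summed striatum markers of 356 and cortex markers of 1320, and the latter had Emx1 at 1.77 with 3090 and 376. The 5 highest libraries for Isl1 shared 4 with the 5 lowest for Emx1, 4 with the 5 highest for Lhx6 and 4 with the 5 highest striatum sums (at least 1710 CPM). They shared 3 with the 5 highest for Nkx2-1, 2 with the 5 highest for Dlx6 and 2 with the 5 lowest for Lhx9. Library 60 min intruder 2 was the lowest for 8 of the 26 members with a median of at least 1 CPM, including Dlx2, Dlx5, Dlx6, Nkx2-1 and Zfhx3. Library 120 min intruder 3 was the highest for Dlx6, Lhx6 (59.5 CPM), Nkx2-1 (9.68), Zfhx3 (24.9) and Zfhx4. Otx2 reached 7.59 CPM in 60 min control 5 where the others were at most 2.26, and the choroid plexus sum there was 1830 CPM, next 254.

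The comparison of intruder with control asks whether the social encounter changed the genes. Within each region and time, 0 of the members tested (31 in amygdala, 27 in frontal cortex, 35 in hypothalamus) were called in any of 9 comparisons with edgeR, and DESeq2 also called 0. Among all genes, 0.538% were called in amygdala at 120 min, 0.192% in hypothalamus at 120 min and 0.0% in the other 7. At an unadjusted p below 0.05 there were 15 of 279 member tests (5.38%). In amygdala these were 1, 1 and 2 members at 30, 60 and 120 min, beside 2.74%, 7.13% and 15.1% of all genes. In frontal cortex they were 1, 1 and 4 (6.28%, 2.54% and 5.34%), and in hypothalamus 0, 0 and 5 (1.92%, 2.22% and 11.5%). The 3 averages over times and the 3 tests of whether the intruder effect differed between regions likewise called 0 members (all genes 0.0% except 0.0109% between regions at 120 min). The averages had 2 members at an unadjusted p below 0.05 in amygdala (all genes 4.35%), 2 in frontal cortex (3.97%) and 0 in hypothalamus (2.95%). Between regions there were 0 at 30 min (2.42%), 0 at 60 min (3.15%) and 8 at 120 min (7.53%), and their smallest adjusted p was 0.386 (edgeR).

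Several differences with an unadjusted p below 0.05 moved by over 1.5 times without a single library. In frontal cortex at 120 min Lhx9 was higher with the intruder by a log2 of 2.41 ± 0.691 (adjusted p = 0.44, edgeR), Otx2 by 2.68 ± 0.877 (adjusted p = 0.61, edgeR) and Lhx5 by 2.39 ± 0.878 (adjusted p = 0.825), none of them called. Without frontal cortex 120 min intruder 1 these values were 0.54, 1.02 and 0.55. Irx3 there was at 1.01 ± 0.435 (adjusted p = 0.864, edgeR) and between 0.92 and 1.2 in the 11 fits without 1 library, but was not tested without intruder 1, its highest library. In hypothalamus at 120 min Lhx9 was at 1.12 ± 0.494 and Otx2 at 1.14 ± 0.487, and without 120 min intruder 6 at 0.09 and 0.29. Emx1 there was at -2.41 ± 0.841 (adjusted p = 0.305, edgeR), and without 120 min control 2 it did not pass the low-count filter. In amygdala Lhx1 at 60 min was at 1.32 ± 0.635 and 0.13 without 60 min intruder 4, and Nkx2-1 at 120 min was at 0.81 ± 0.354 and 0.48 without 120 min intruder 3. Isl1 in frontal cortex at 30 min was at 2.28 ± 1.08 and 1.13 without 30 min intruder 2.

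Members differed in how widely these fitted differences ranged. Over the 9 comparisons Pbx2 lay between -0.06 and 0.06 on the log2 scale, Meis3 between -0.08 and 0.04 and Satb1 between -0.15 and 0.05. Otp, tested in amygdala and hypothalamus alone, lay between -0.2 and 0.28. Hmx2 and Hmx3, tested in hypothalamus alone, lay between -0.03 and 0.23. Otx2 ran from -1.49 to 2.68 over the 9, Lhx6 from -0.81 to 0.33 and Onecut2 from -0.15 to 0.68.

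Time after the exposure was compared within conditions. Among controls, 0 of 31 members were called in amygdala (all genes 0.232%) and 0 of 35 in hypothalamus (0.181%). At an unadjusted p below 0.05 there were 1 (all genes 10.9%) and 3 (9.88%), and DESeq2 also called 0 in both. Among intruder libraries 0 members were called across times in amygdala (all genes 12.9%) and 0 in hypothalamus (1.49%), with 6 (28.5%) and 3 (14.4%) at an unadjusted p below 0.05 (edgeR). Between 120 and 30 min alone, Otx1 was lower in amygdala intruder libraries by a log2 of -0.37 ± 0.111 (adjusted p = 0.0232, edgeR), the 1 member called there beside 15.0% of all genes. In frontal cortex 7 of 27 were called across the 3 control times (Dlx2, Zfhx4, Lhx6, Pbx2, Dlx1, Emx2 and Pou3f3), beside 33.4% of all genes, and 7 among intruder libraries, beside 46.1%. Both shares of the members, 25.9%, lay below those of all genes.

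Zfhx4 in frontal cortex controls was at 15.6, 16.4, 17.0, 19.9 and 20.3 CPM at 30 min, at 9.26, 9.74, 11.2, 11.5 and 14.1 at 60 min and at 12.6, 13.1, 15.3, 15.5, 16.4 and 16.4 at 120 min. The 30 and 60 min controls did not overlap, with a log2 difference of -0.68 ± 0.146 (adjusted p = 0.000673, edgeR). Dlx2 was at 4.58, 4.66, 4.78, 4.91 and 6.27 CPM at 30 min and at 4.46, 6.37, 7.87, 8.12 and 10.2 at 60 min, a difference of 0.55 ± 0.166 (adjusted p = 0.0111, edgeR). A single 60 min control lay below all 30 min controls for Dlx2. Lhx6 was at 17.3 to 21.3 CPM at 30 min, at 23.9 ± 1.93 (SD, n = 5) at 60 min and at 23.9 ± 1.52 (n = 6) at 120 min, and both later times were called above 30 min. Pbx2 rose from 48.1 ± 2.37 to 53.8 ± 2.35 CPM and was at 48.3 ± 1.11 at 120 min.

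In pairs of times, 7 members were called between 60 and 30 min in frontal cortex controls (all genes 35.4%), 1 between 120 and 30 min (4.42%) and 4 between 120 and 60 min (15.9%). In intruder libraries the counts were 9 (all genes 45.5%), 3 (17.7%) and 1 (22.9%). Leaving out 60 min control 1 or 60 min control 5 brought the 7 called across control times down to 3 each, and Lhx6, Pbx2 and Zfhx4 were called in both. Emx2 was also lost with upper-quartile scaling (adjusted p = 0.051, edgeR) and with no low-count filter (adjusted p = 0.0539, edgeR), and Pou3f3 was lost in 7 of the fits without 1 library. The 30 min columns carry 1 word in their headers and the 60 and 120 min columns another, which the labels do not explain, so the 30 min time and whatever that word marks cannot be told apart. Within frontal cortex controls, and within its intruder libraries, no lead library index was shared between times. Time and index therefore cannot be told apart in any of these pairs. At 120 min the frontal cortex controls and intruder libraries also had different lead indices. Oligodendrocyte markers moved with these times: all 8 were called across control times, and their sums were 3040 to 3880 CPM at 30 min, 4440 to 6880 at 60 min and 3700 to 5820 at 120 min. Of 8 olfactory bulb markers 3 were called and of 8 striatum markers 0. The part of these cells in the members' differences was not tested.

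**Figure D5:**
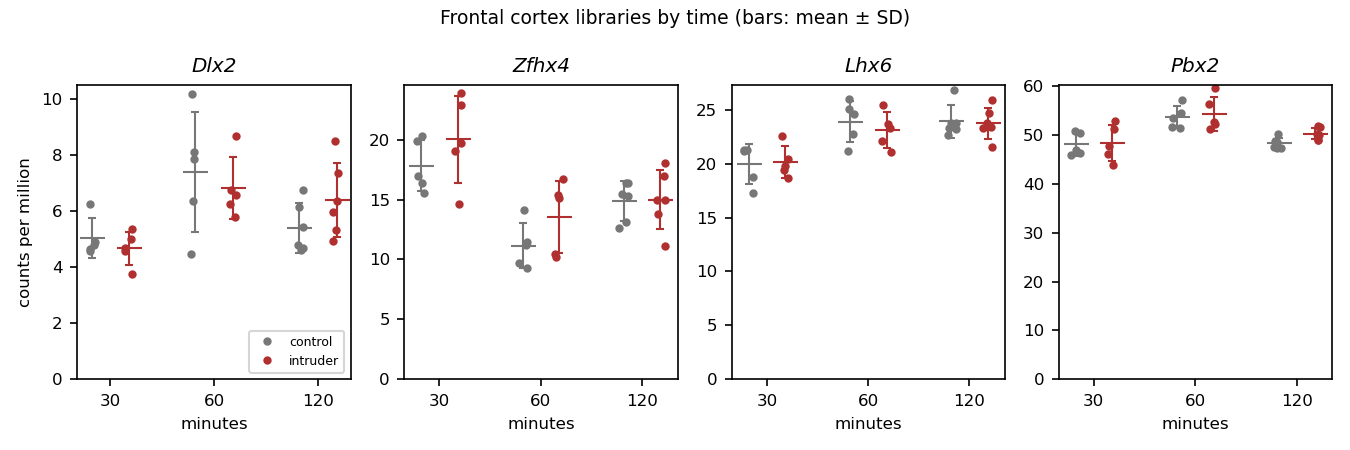
CPM of Dlx2, Zfhx4, Lhx6 and Pbx2 in frontal cortex libraries at 30, 60 and 120 min after the exposure, controls in grey and intruder libraries in red, with the mean ± SD. Zfhx4 is lowest at 60 min (11.2 ± 1.91 CPM in controls) and Pbx2 is highest there (53.8 ± 2.35).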

How the data were processed

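RNA from 3 brain regions was sequenced as single-end stranded mRNA libraries, per the labels' protocols. The authors deposited 1 table of read counts per gene for 90 libraries. Per the submitters' processing notes it involved CASAVA 1.8.2, TopHat2 2.0.8, HTSeq 0.6.1, edgeR 3.2.4 and build NCBIM37; the strand setting is not given in the sources used here. The 5 rows naming no gene were left out (no feature 8.63 to 14.46% and ambiguous 0.63 to 0.76% of a library).

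Genes were filtered with filterByExpr, scaled by the trimmed mean of M-values and tested across all genes with edgeR 4.0.16 (R 4.3.3, quasi-likelihood F test, Benjamini-Hochberg adjusted p). Region contrasts used all 90 libraries with 1 coefficient for each of 18 groups, averaging the 6 groups of a region; intruder and time contrasts used each region alone. An SE is the absolute log2 difference over the root of F. DESeq2 1.42.0, upper-quartile scaling, no filter, single times, controls only, blocks and left-out libraries were alternatives; comparisons of pairs of times and of intruder libraries across times, and leaving out 3 libraries that stood apart, were chosen after seeing the data. The members and gene lists were chosen with earlier results of these data known. Any member could be named; other lists are given as counts with up to 2 called genes per direction and region contrast. Some genes that this rule names are not reported here. The fits were tested on simulated data.

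The same number in different regions marks the same animal, per the animal label, so the animal is a true block for region contrasts. Deviations of regions of an animal correlated between -0.17 and 0.29 over 86 pairs. No libraries were duplicates: over 183 pairs within groups, squared standardised count differences averaged at least 4.2, where sampling noise gives 1.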

Additional observations from a re-analysis of the deposited data

Results flagged for a closer look

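Members were scored per library as the mean log2(CPM + 1) of the pallial, subpallial or hypothalamic genes, and within each of 17 groups of 5 or 6 libraries the highest and lowest were set against the rest, 102 tests in all. Chance marks about 1 in 20 of the 51 sets of 1 group and 1 score, or 2.55, so the 3 marked below are about what chance gives. The pallial score of hypothalamus 120 min control 2 was 2.36 where the rest of its group lay between 1.53 and 1.61. The hypothalamic score of hypothalamus 60 min control 6 was 2.73, below the 3.19 to 3.36 of its group. The hypothalamic score of frontal cortex 120 min intruder 1 was 0.88, above the 0.29 to 0.36 of its group.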

How the results depend on the processing

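Under all alternatives run, 31 to 34 members were called for hypothalamus against frontal cortex and 25 to 32 for amygdala against frontal cortex. For hypothalamus against amygdala it was 31 to 34. Leaving out the libraries of each replicate number gave 32 to 33, 28 to 32 and 31 to 33. These counts include the members said above to support no count. In the main fit 87.4%, 76.7% and 80.1% of all genes were called, so the counts had little room to change and their steadiness is no support. Intruder counts were 0 under every alternative run. Across frontal cortex control times, leaving out 1 library gave 3 to 8 members; without 60 min control 1 or 60 min control 5 it was 3. Signs turned in single times or scalings for small differences. Between hypothalamus and frontal cortex these were Lhx6 (0.1 at 30 min), Dlx5 (-0.00018 at 60 min) and Pbx2 (0.043 at 30 min, 0.024 with upper-quartile scaling). Between amygdala and frontal cortex they were Zfhx4 (-0.055) and Meis3 (0.016) at 30 min and Meis2 (-0.015) and Dlx1 (-0.22) at 60 min. Between hypothalamus and amygdala it was Lhx9 (0.0054 at 120 min). In the 60 min libraries alone, calls were also lost for Dlx2 (0.11), Lhx6 (0.62), Onecut2 (-0.39), Otx2 (1.22) and Pou3f4 (0.13) between amygdala and frontal cortex. At that time they were also lost for Otx2 (0.71) and Satb1 (-0.22) between hypothalamus and amygdala, and for Pbx3 (0.40) and Lhx6 (-0.44) between hypothalamus and frontal cortex. The cause was not tested. With the animal as a block, Meis2 (0.23) and Pou3f4 (0.27) were no longer called between amygdala and frontal cortex. Control 1 and intruder 1 of a time share only a number: over 41 pairs their deviations correlated between -0.43 and 0.49, and the replicate block on that number called 0 members in the intruder comparisons, as without it. The library index could not be fitted as a block where it coincides with the groups. Members with few reads in a region, such as Six6, Hmx2 and Nkx2-4 outside hypothalamus, are limited by depth.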
